A study of Homo sapiens with 4 samples.

Results

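The genes described here are 41 interferon-stimulated and DNA-sensing genes, followed in RPE-1 cells between 4 and 8 h of exposure to merbarone, a drug that inhibits the catalytic activity of DNA topoisomerase II (TOP2). They were chosen by name, as genes whose current NCBI symbol is on a list of nucleic acid sensors, interferon beta, interferon-regulated transcription factors and antiviral effectors, and all 41 were among the 23459 genes with counts. RPE-1 is an established, non-cancerous human cell line of the retinal pigment epithelium, immortalized with telomerase (hTERT) and labelled as wild type. All cells shared 48 h of serum starvation in medium with 0.1% fetal bovine serum and then 200 μM merbarone, for 4 h in 2 libraries and for 8 h in 2 others. Untreated cells were not analysed here, so each difference is between the later and the earlier time of treatment, and time in the drug cannot be told apart from time in low serum.

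Cells recognise viral or misplaced nucleic acid with dedicated sensors. RIGI and IFIH1 (also called MDA5) bind RNA in the cytoplasm, while CGAS binds DNA there and makes a second messenger that STING1 receives on the endoplasmic reticulum. Both routes lead to interferon beta, the product of IFNB1, which is secreted and acts through the receptor IFNAR1-IFNAR2 and the kinases JAK1 and TYK2. These activate a complex containing STAT2 and IRF9 that binds the interferon-stimulated response element (ISRE) in the promoters of interferon-stimulated genes (ISGs), while interferon gamma acts through another element, the gamma-activated site (GAS). DNA breaks can also feed this route when chromosome fragments reach the cytoplasm.

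Of the 41 genes, 28 had a CPM (a gene's counts scaled to a library of standard size) above 1 in at least 2 libraries and were tested with edgeR for 8 h against 4 h. No gene of the 28 was called higher at 8 h, although 10 had a positive log2FC. A call was a Benjamini-Hochberg adjusted p below 0.05 over all 12559 genes tested, and 6 of the 28 genes fell, IRF1, OAS3, PARP9, DTX3L, PARP14 and SAMD9L, with log2FC from −1.06 to −0.46. These 6 are 21.4% of the genes tested here, close to the 18.8% of all genes that were called lower. By contrast, 19.9% of all genes were called higher and 0 of the 28 were, in edgeR, DESeq2 and Limma-Voom alike. At an unadjusted p below 0.05 in edgeR, 0 of the 28 were higher as well. With no library left out, that count was 4 after a correction for abundance, where IFI6 was also called higher, and 1 with no filter beyond 1 count. The log2FC of IFI6 also depended on a single library, at 0.36 in the main fit and 0.58 without replicate 2 at 8 h. The median log2FC of the 28 genes was −0.10, against 0.00 over all genes tested. After the abundance correction these medians were −0.03 and 0.01. With the thresholds of the study, which add an absolute log2FC above 1, only SAMD9L was a DEG, beside 3.88% of all genes that were DEGs lower at 8 h. This count rests on single libraries. It was 0 without replicate 1 at 4 h, where SAMD9L had a log2FC of −0.86, and 3 without replicate 1 at 8 h, where OAS3 (−1.10) and PARP9 (−1.19) were also past −1. In bulk RNA, fewer cells that express a gene and less of its RNA per cell cannot be told apart.

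The libraries held between 8064450 and 10324697 counts. The 95% interval of the log2FC had a half-width between 0.18 and 1.12 among the 28 genes, so small changes of the rarest ones could not be seen. Among the markers of the retinal pigment epithelium, MITF, OTX2, PMEL and SERPINF1 passed the CPM filter. PMEL passed it narrowly, with between 7 and 12 counts in a library. The other 7 of 11, RPE65, BEST1 and RLBP1 included, had at most 7 counts in a library, and TYR had 0. Markers of immune cells summed to between 57.4 and 73.3 CPM over 9 genes. Nearly all of this was CD68, a lysosomal gene of many cell types, which was itself called higher at 8 h (log2FC 0.39) and without which the sum was between 1.37 and 1.74 CPM at both times. CD3E, ITGAM and CLEC4C had 0 counts. The keratin genes KRT8 and KRT18 summed to 711 and 770 CPM at 4 h and 574 and 616 CPM at 8 h. These marker sums were scaled by library size alone, without the TMM normalization behind each log2FC. KRT18 was called lower (log2FC −0.51, edgeR adjusted p = 3.72e-05) and KRT8 was not called (0.03, edgeR adjusted p = 0.798). The part of these differences in the results was not tested.

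Interferon beta itself was not detected. IFNB1 had 0 counts in every library, which allows a level of up to between 0.291 and 0.372 CPM, the 3 counts that a count of 0 allows, for counting error only. Of 21 other interferon genes, 20 also had 0 counts in each library, among them every interferon alpha gene on the list and IFNG. IFNE, an epithelial interferon gene, was the exception, with 20 and 15 counts at the earlier time, 15 and 8 at the later, and no call (log2FC −0.29 ± 0.43, standard error; edgeR adjusted p = 0.623).

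In total 13 of the 41 genes did not pass the filter, and no gene passed it through 1 time alone. Besides IFNB1, these were MX2, RSAD2, CMPK2 and IRF9, at 0 counts in every library, and CGAS, OAS1, OAS2, OASL, MX1, IFI27, BST2 and XAF1, with between 0 and 9 counts. MX1 and MX2 encode GTPases that block virus entry into the nucleus or its replication, RSAD2 encodes viperin and CMPK2 a mitochondrial nucleotide kinase. The highest of them was OAS1, with 9 and 7 counts at the earlier time and 7 and 5 at the later. OASL had 2 and 4 counts at 4 h and 0 in both 8 h libraries, and OAS2 had 3 and 1 at 4 h and 0 in both at 8 h, too few to compare. The zero of IRF9 is uncertain as a level. IRF9 is the DNA-binding subunit of the ISRE complex, no other listed gene overlaps its exons, and its neighbours PSME2 and RNF31 had between 19.6 and 31.1 CPM, so IRF9 is described only as listed at 0.

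**Figure D1:**
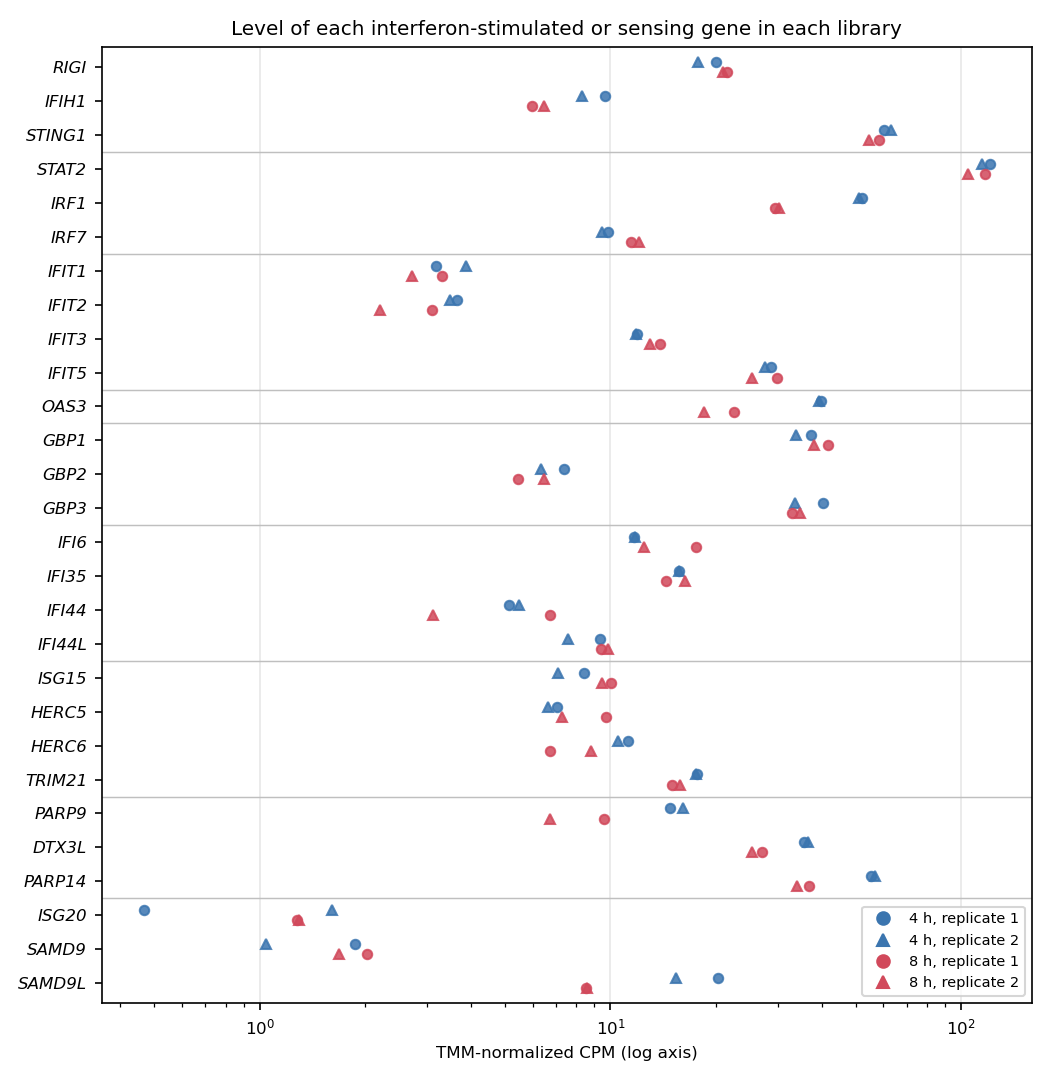
Level of the 28 interferon-stimulated and sensing genes that passed the CPM filter, in TMM-normalized CPM on a log axis, with each library as a point (blue 4 h, red 8 h, circle replicate 1, triangle replicate 2) and lines between groups of related genes. STAT2 lies highest, between 105 and 121 CPM, and the red points of IRF1, OAS3, the PARP9 to PARP14 group and SAMD9L lie to the left of the blue ones.

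None of the 3 sensors above the filter, STING1, RIGI and IFIH1, was called. STING1 had 60.1 and 63.0 CPM at 4 h and 58.2 and 54.4 CPM at 8 h, and RIGI had 19.9 and 17.8 CPM at 4 h and 21.5 and 21.0 CPM at 8 h. The log2FC was −0.13 for STING1 (95% interval −0.33 to 0.08, edgeR adjusted p = 0.328) and 0.17 for RIGI (95% interval −0.13 to 0.48, edgeR adjusted p = 0.36). IFIH1 had 9.64 and 8.32 CPM at 4 h and 5.97 and 6.48 CPM at 8 h. Its 8 h libraries were both below its 4 h libraries, and its log2FC was −0.53 ± 0.21 (standard error), just short of a call (edgeR adjusted p = 0.0561, range over the alternatives 0.0224 to 0.282). CGAS had between 0 and 3 counts in a library, so the DNA sensor upstream of STING1 was near the limit of detection at both times. Per kilobase of transcript, STING1 had 28.4 CPM per kilobase at 4 h and 26.0 at 8 h. STAT2 had 26.7 and 25.2, and the other genes of the 28 were lower on this scale. Windows of 75 bases across exon junctions, which could not be mapped, were 24.7% of the STING1 transcript and 35.7% of the STAT2 transcript. The scale does not correct for them, so the order of STING1 and STAT2 is not settled.

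Among the transcription factors, IRF1 fell. IRF1, which drives many ISGs and is itself induced by interferon gamma, had 52.2 and 51.1 CPM at 4 h and 29.4 and 30.2 CPM at 8 h. The 2 times lay far apart compared with the replicates, and the log2FC was −0.79 (standard error 0.11, edgeR adjusted p = 1.33e-05). STAT2, a subunit of the ISRE complex, had 121 and 114 CPM at 4 h and 117 and 105 CPM at 8 h. These values overlap, and the log2FC of −0.08 had a 95% interval from −0.26 to 0.10 (edgeR adjusted p = 0.487). IRF7, which amplifies interferon production, had 9.83 and 9.46 CPM at 4 h and 11.4 and 12.1 CPM at 8 h, with a log2FC of 0.28 (95% interval −0.11 to 0.67, edgeR adjusted p = 0.241).

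In the PARP9, DTX3L and PARP14 cluster all 3 genes fell. PARP9 and DTX3L encode the subunits of a ubiquitin ligase complex that binds ADP-ribosylated chromatin and also acts in DNA repair, and PARP14 encodes an ADP-ribosyltransferase. They lie together on chromosome 3, between 122246771 and 122449687 on GRCh37 (hg19), PARP9 on the minus strand and the others on the plus strand. PARP9 had 14.8 and 16.1 CPM at 4 h and 9.60 and 6.74 CPM at 8 h. DTX3L had 35.6 and 36.7 CPM at 4 h and 27.0 and 25.3 CPM at 8 h. PARP14 had 55.1 and 56.7 CPM at 4 h and 36.8 and 34.0 CPM at 8 h. In each gene both 8 h libraries were below both 4 h libraries. The log2FC was −0.90 for PARP9 (standard error 0.20, edgeR adjusted p = 0.0012), −0.46 for DTX3L (standard error 0.12, edgeR adjusted p = 0.00451) and −0.66 for PARP14 (standard error 0.11, edgeR adjusted p = 7.45e-05). PARP9 exons cover 2.41% of the DTX3L transcript on the opposite strand, and it is not known whether the counting used strand.

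SAMD9L had the largest fall of the 28 genes. SAMD9L encodes a cytoplasmic protein that restricts poxviruses and cell growth, and lies on chromosome 7 (92759369 to 92777698, minus strand) beside its paralog SAMD9. Its level was 20.3 and 15.4 CPM at 4 h and 8.53 and 8.55 CPM at 8 h, so that even the lower 4 h library stood well above both 8 h libraries. The log2FC was −1.06 (standard error 0.19, 95% interval −1.46 to −0.67, edgeR adjusted p = 0.000194). SAMD9 was rare, with 20 and 11 counts at the earlier time and 19 and 13 at the later, and its log2FC of 0.36 had a 95% interval from −0.53 to 1.24 (edgeR adjusted p = 0.534).

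OAS3 was the only gene of the OAS family above the filter. The OAS enzymes bind double-stranded RNA and make the 2′-5′ oligoadenylates that activate RNase L. OAS3, on chromosome 12 (113375856 to 113414265, plus strand), had 39.9 and 39.4 CPM at 4 h and 22.5 and 18.5 CPM at 8 h. Both 4 h values were above the 8 h values, and the log2FC was −0.94 ± 0.13 (standard error; edgeR adjusted p = 1.26e-05). Its neighbours in the cluster, OAS1 and OAS2, had at most 9 counts in a library.

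**Figure D2:**
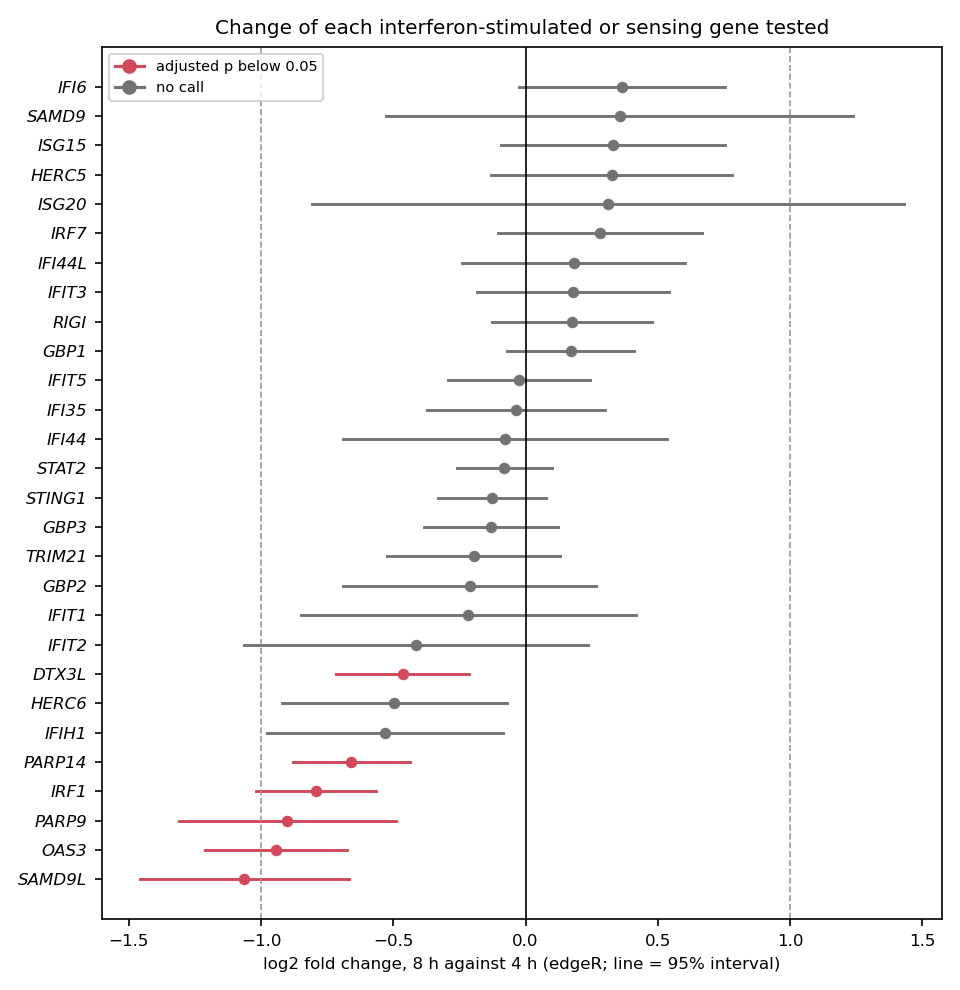
Log2FC of the 28 tested genes, 8 h against 4 h, from edgeR, as points with 95% intervals, ordered by size, with dashed lines at −1 and 1 (red, adjusted p below 0.05; grey, no call). The 6 red genes run from DTX3L at −0.46 to SAMD9L at −1.06, and the highest grey point is IFI6 at 0.36.

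None of the 4 IFIT genes was called. The IFIT proteins, which bind RNA, are encoded side by side on chromosome 10 (91043451 to 91181362). IFIT1 was at 3.18 and 3.88 CPM at 4 h and 3.31 and 2.72 CPM at 8 h, which overlap (log2FC −0.22, 95% interval −0.85 to 0.42). IFIT2 was at 3.65 and 3.50 CPM at 4 h and 3.09 and 2.20 CPM at 8 h (log2FC −0.41, 95% interval −1.06 to 0.24). IFIT3 was at 11.9 and 11.8 CPM at 4 h and 13.9 and 13.0 CPM at 8 h (log2FC 0.18, 95% interval −0.18 to 0.54). IFIT5 had the highest level of the family per kilobase, with 6.99 CPM per kilobase at 4 h and 6.85 at 8 h, and a log2FC of −0.03 (95% interval −0.29 to 0.24).

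ISG15, the ubiquitin-like modifier, had 8.42 and 7.09 CPM at 4 h and 10.03 and 9.46 CPM at 8 h. The times did not overlap, yet the log2FC of 0.33 (95% interval −0.09 to 0.75) was not called (edgeR adjusted p = 0.207). HERC5, the ligase that attaches ISG15 to proteins, had 7.02 and 6.62 CPM at 4 h and 9.71 and 7.26 CPM at 8 h (log2FC 0.33, edgeR adjusted p = 0.25). HERC6, its neighbour on chromosome 4, had 11.2 and 10.5 CPM at 4 h and 6.72 and 8.81 CPM at 8 h. HERC6 thus had the opposite sign, with a log2FC of −0.50 (95% interval −0.92 to −0.07, edgeR adjusted p = 0.0616), and neither gene was called. TRIM21, a cytosolic antibody receptor and ubiquitin ligase, went from 17.7 and 17.5 CPM to 14.9 and 15.8 CPM (log2FC −0.20, edgeR adjusted p = 0.34).

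Among the IFI genes, IFI6 came closest to a rise. IFI6, a mitochondrial and endoplasmic reticulum protein that opposes apoptosis, was at 11.7 CPM in both 4 h libraries and at 17.5 and 12.4 CPM at 8 h. The 8 h replicates differed by more than the lower of them differed from 4 h, and the log2FC was 0.36 (95% interval −0.02 to 0.75, edgeR adjusted p = 0.128). Without replicate 2 at 8 h the log2FC was 0.58 and was called (edgeR adjusted p = 0.0142), and without replicate 1 at 8 h it was 0.09. IFI44 also differed between the 8 h replicates, with 6.72 and 3.11 CPM around the 5.15 and 5.48 CPM of 4 h. IFI35 and IFI44L had a log2FC of −0.04 and 0.18 (edgeR adjusted p = 0.879 and 0.503).

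The guanylate-binding proteins GBP1, GBP2 and GBP3, GTPases that attack vacuoles of pathogens and respond chiefly to interferon gamma, lie together on chromosome 1 (89472362 to 89616139). GBP1 had 37.3 and 33.8 CPM at 4 h and 41.8 and 38.0 CPM at 8 h, a log2FC of 0.17 (95% interval −0.07 to 0.41). GBP2 and GBP3 overlapped between the times, with a log2FC of −0.21 and −0.13 (edgeR adjusted p = 0.492 and 0.422). GBP1 shares 5.52% of its 75-base windows with GBP3 or a GBP1 pseudogene, so some reads from it can be lost to the single-position rule. ISG20, an exonuclease gene, had between 5 and 17 counts and a log2FC of 0.31 with a 95% interval from −0.81 to 1.43.

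Without regard to calls, the pair of 8 h values was lower than the 4 h pair in 11 of the 28 genes and higher in 8, while the times overlapped in 9. Over all genes tested, 34.9% were below and 34.8% above their 4 h libraries in the same way. Of the 22 genes without a call, the 95% interval lay between a log2FC of −1 and 1 for 19, and IFIT2, ISG20 and SAMD9 were the exceptions. The 6 called genes had a mean log2-CPM between 3.62 and 5.53, inside the range of 0.44 to 6.84 of the genes without a call. Their transcripts were longer, with a median of 6184 bases against 3215, as a description of 6 and 22 genes.

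**Figure D3:**
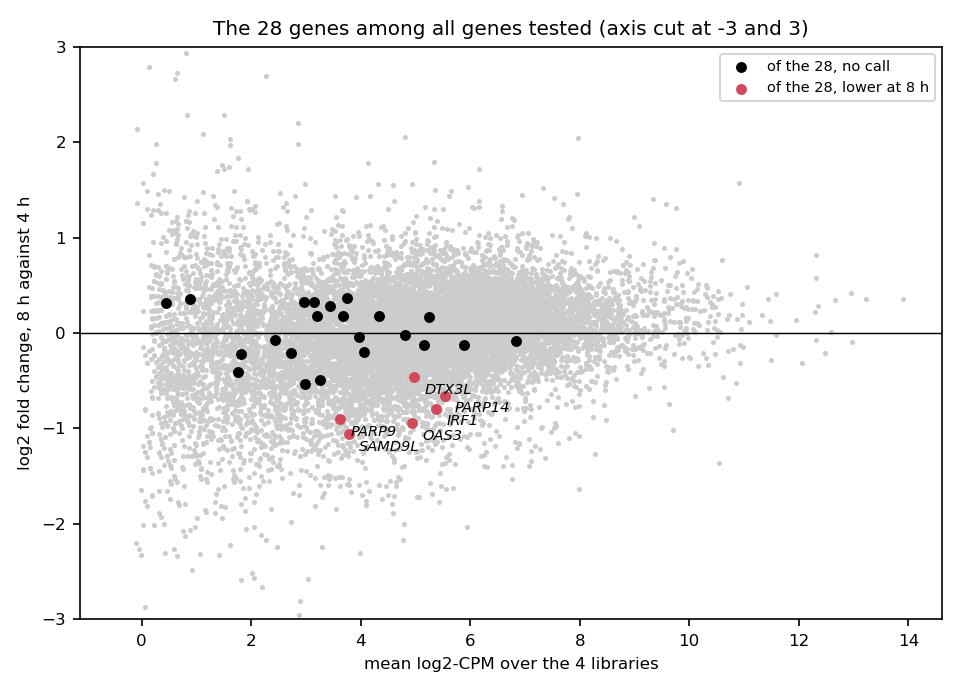
Log2FC, 8 h against 4 h, against mean log2-CPM over the 4 libraries for all 12559 genes tested (grey), with the 22 uncalled genes in black and the 6 called genes in red and named. Genes outside −3 to 3 are not drawn. The 6 red points lie between a mean log2-CPM of 3.62 and 5.53, within the grey cloud.

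The promoters of called and uncalled genes were searched for the elements that interferon-activated factors bind. RefSeq promoter windows, from 250 bases before to 50 after a transcription start, were present for 33 of the 41 genes. An ISRE-type match was GAAANNGAAA on either strand, in any window of a gene. It was found for 22 of these 33 genes (66.7%), against 4.38% of all 27305 genes with a window. Among the genes that fell, 4 of 6 had a match (OAS3, PARP9, DTX3L and PARP14), and among the genes without a call 14 of 18 had a match. A GAS-type match, TTCNNNGAA, was found for 10 of 33 genes, against 9.38% of all genes. It was found for 2 of 6 genes that fell, 2 of 18 without a call and 6 of 9 that were not tested. IRF1 and SAMD9L had no ISRE-type match in the window, which says only that these letters are not there. A match is a run of letters, and binding was not measured.

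The stretches below are shown because they hold the matches of the genes that fell and, for comparison, of 2 classical ISGs that were not called. Each reads 5′ to 3′ on the strand named beside it, with the ISRE-type or GAS-type match in capitals. That is the strand of the gene, except for PARP9, which lies on the minus strand. The sequences are those of RefSeq on GRCh38.p14. Each lies in a 300-base window that was found once, unchanged, on the gene's own chromosome of GRCh37, which gives its position. Other chromosomes were not searched.
OAS3 promoter, chr12:113376129-113376278, plus strand: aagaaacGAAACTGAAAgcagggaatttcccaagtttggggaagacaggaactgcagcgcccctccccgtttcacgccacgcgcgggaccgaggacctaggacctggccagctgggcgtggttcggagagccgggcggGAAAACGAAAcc
PARP14 promoter, chr3:122399626-122399685, plus strand: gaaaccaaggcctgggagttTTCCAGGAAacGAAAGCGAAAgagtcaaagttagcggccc
PARP9 and DTX3L shared promoter, chr3:122283148-122283188, plus strand: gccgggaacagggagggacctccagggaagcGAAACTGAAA
IRF1 promoter, chr5:131826565-131826605, minus strand: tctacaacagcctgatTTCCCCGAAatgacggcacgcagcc
IFIT1 promoter, chr10:91152250-91152299, plus strand: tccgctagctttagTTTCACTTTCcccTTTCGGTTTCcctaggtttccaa
ISG15 promoter, chr1:948747-948796, plus strand: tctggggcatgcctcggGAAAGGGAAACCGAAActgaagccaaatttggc

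The PARP9 and DTX3L stretch runs from the base before a PARP9 start, at 122283147 on the minus strand. It ends at base 4 of DTX3L, which starts at 122283185 on the plus strand. One and the same ISRE-type match, at 122283179 to 122283188, therefore counts for both genes. This match lies 41 to 32 bases before that PARP9 start and across the start of DTX3L. Another PARP9 window, at 122283582 to 122283881, held no match of either type. In the PARP14 promoter, the GAS-type match (bases −40 to −32) stands 2 bases before the ISRE-type match (bases −29 to −20). OAS3 has ISRE-type matches at bases −143 to −134 and −12 to −3. IRF1 has a GAS-type match at bases −124 to −116, and in the ISG15 promoter a pair of ISRE-type matches overlap.

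Other genes of the pathway were called in both directions, in shares near those of all genes. Of 123 genes on 7 lists, 89 were tested. The lists were interferons, receptors with their kinases and STATs, other sensing and signalling, nucleases and editing enzymes, negative regulators, antigen presentation and other ISGs. Among the 89 genes, 21 were higher and 17 lower at 8 h, and 51 had no call. That is 23.6% higher and 19.1% lower, against 19.9% and 18.8% of all genes. Scaling by library size alone moved the median of all genes to −0.11 and gave 14 higher and 24 lower, and without replicate 1 at 4 h 12 were higher. The receptor and kinase genes were present at both times. IFNAR1 went from 87.6 ± 3.10 to 87.3 ± 4.57 CPM (SD, n = 2 each; log2FC 0.00, 95% interval −0.19 to 0.18), IFNAR2 had a log2FC of 0.09, and JAK1 and TYK2 had 0.20 and −0.21 without a call (edgeR adjusted p = 0.0598 and 0.0841). In this list of 11 genes, 3 were called higher (27.3%, against 19.9% of all genes), IFNGR1 and STAT3 among them. In the other direction 0 were called lower, against 18.8% of all genes.

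Of the 16 genes tested in the list of other sensing and signalling genes, 4 rose and 3 fell. These are 25% and 18.8%, against 19.9% and 18.8% of all genes. IRF3, the factor that TBK1 phosphorylates to induce IFNB1, fell from 60.0 ± 0.17 to 34.5 ± 2.09 CPM (SD, n = 2 each). Its log2FC was −0.80 ± 0.11 (standard error; edgeR adjusted p = 8.5e-06), although exons of BCL2L12 overlap 14.2% of its transcript. IKBKE, a kinase related to TBK1, fell from 10.1 ± 0.19 to 4.33 ± 0.07 CPM (SD, n = 2 each; log2FC −1.22, edgeR adjusted p = 0.000253). MAVS, the mitochondrial adaptor of RIGI and IFIH1, fell by 0.38 on the log2 scale (edgeR adjusted p = 0.000752), and TBK1 had a log2FC of 0.26 without a call (edgeR adjusted p = 0.0967). IFI16, a nuclear DNA-binding protein, rose by 0.59, TICAM1, the adaptor of TLR3, by 0.55 and TBKBP1, which binds TBK1, by 0.54 (edgeR adjusted p = 5.66e-05, 0.000496 and 0.0179).

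Of the 15 antigen presentation genes, 6 were called higher (40%) and 1, NLRC5, lower (6.67%), with a median log2FC of 0.24. Over all genes tested, 19.9% were called higher and 18.8% lower. HLA-B went from 429 ± 11.0 to 710.2 ± 38.6 CPM (SD, n = 2 each), a log2FC of 0.73 (edgeR adjusted p = 2.5e-07). The HLA class I genes are polymorphic and similar to each other, so their counts depend on how reads of this cell line match the reference and on the single-position rule. Among 31 other ISGs tested, 6 rose (19.4%) and 10 fell (32.3%). DDX60, DDX60L and TDRD7, at a log2FC of −0.89, −0.88 and −0.96 (edgeR adjusted p = 0.00119, 0.000683 and 0.000421), were among the 5 largest falls of the pathway lists. Of the 7 nuclease and editing genes tested, 2 fell (28.6%) and 0 were called higher. Of the 8 negative regulators tested, 2 rose (25%) and 1 fell (12.5%). TREX1, the main cytosolic DNA exonuclease, had at most 1 count, with its whole transcript overlapped by exons of ATRIP, and USP18, a negative regulator and itself an ISG, had between 1 and 3 counts.

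**Figure D4:**
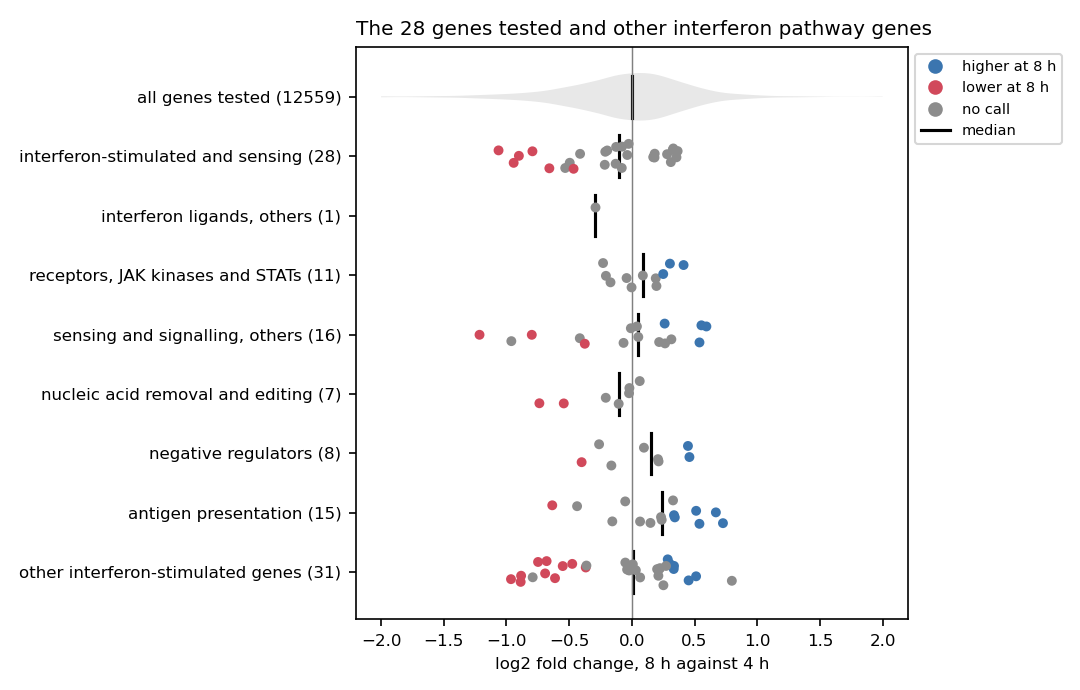
Log2FC, 8 h against 4 h, of the 28 interferon-stimulated and sensing genes and of 7 lists of other pathway genes, each point a gene (blue higher, red lower, grey no call) and each black bar a median, below the distribution of all 12559 genes tested (grey shape, values beyond −2 and 2 drawn at those limits). The 28 genes have red points and no blue ones, with a median of −0.10, and antigen presentation has the highest median, 0.24.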

How the data were processed

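RNA-Seq libraries of mRNA (a stranded kit) from RPE-1 cells, 2 replicates at 4 h and 2 at 8 h of merbarone, were used. The authors mapped 75-base reads to hg19 with Bowtie (version 1.2.0 in the submitters' processing notes), kept reads with a single genome position, and deposited raw counts per gene, by NCBI Gene ID. The annotation, counting tool and use of strand are not given in the sources used here. Bowtie does not split reads, so windows across exon junctions (between 1.75% and 46.7% of the transcripts of the 28 genes tested) could not be mapped to the genome.

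Symbols came from the RefSeq table of GRCh38.p14 (23308 IDs matched), and positions, exons and transcript lengths from GENCODE on GRCh37. The filter was CPM above 1 in 2 or more libraries, counts were normalized by TMM, and the times were compared by edgeR 4.0.16 (quasi-likelihood test, R 4.3.3), with time as the only term. The standard error is the log2FC divided by the square root of F, without its sign. The biological coefficient of variation was 6.52%. The study calls the replicates biological, but nothing says whether they were separate cultures, so p-values measure the spread between these libraries.

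Alternatives were Limma-Voom (limma 3.58.1), DESeq2 1.42.0, library-size and RLE scaling, other filters, the replicate number as a block, a loess correction for abundance, and leaving out each library. The tests were tried on simulated counts. All 41 genes are accounted for. Other pathway genes were named by a rule: 10 fixed genes, plus the 5 largest rises and 5 largest falls among calls with at least 20 normalized counts. Values of 2 genes that the rule names are not reported here. IFNE, IFNGR1, STAT3, NLRC5, PSME2 and RNF31 were added after their values were seen. The genes and lists were chosen with earlier results of these data known. Floors cover counting error only.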

Additional observations from a re-analysis of the deposited data

How the results depend on the processing

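The 6 genes that fell were called lower in all 12 alternatives of scaling, test, filter, block, abundance correction or left-out library. The count of genes lower ran from 6 to 8, as IFIH1 and HERC6 were added by library size alone (which moved the median of all genes to −0.11), IFIH1 by a CPM filter of 2, and HERC6 without replicate 2 at 8 h. With an absolute log2FC above 1 it was 1 (SAMD9L), 0 without replicate 1 at 4 h or after the abundance correction, and 3 (with OAS3 and PARP9) without replicate 1 at 8 h or with library size alone. The count of genes higher was 1 (IFI6) after the abundance correction and 0 to 1 with a library left out. Signs changed for 5 genes without a call. After the abundance correction IFIT5, IFI35 and IFI44 had a log2FC of 0.03, 0.08 and 0.11. With a library left out, the log2FC ran from −0.15 to 0.08 for IFIT5, −0.12 to 0.06 for IFI35, −0.77 to 0.34 for IFI44, −0.33 to 1.43 for ISG20 and −0.01 to 0.82 for SAMD9. With a library left out, the count of other pathway genes higher ran from 12, without replicate 1 at 4 h, to 23. A time left with 1 library was assumed to vary like the other. The cause of these changes was not tested.

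With the replicate number as a block (replicate block), 8 genes were lower, IFIH1 and HERC6 included (edgeR adjusted p = 0.0443 and 0.042), 0 were higher, and 26 and 18 other pathway genes were higher and lower. Deviations of same-numbered libraries had a correlation of 0.05, so the numbers were not taken to pair the libraries. Genes under about 10 counts in a library could not be compared at this depth.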
